A study of Mus musculus with 41 samples.

Results

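A set of 7 genes of the B cell lineage and of antibody-secreting cells, Cd79a, Cd79b, Ms4a1, Blnk, Pax5, Pou2af1 and Igj, were followed across mammary tumors of mice on a low fat or a high fat diet. They were chosen by name, and all 7 were on the array, out of 30175 genes with a symbol. A gene with several probes was represented by the probe of highest mean signal, so that 7 of 9 probes were used. On mm9, the build of the array's annotation, these probes lie at chr7:25686823-25686882 for Cd79a, chr11:106172780-106172839 for Cd79b, chr19:11325367-11325426 for Ms4a1, chr19:41003426-41003485 for Blnk, chr4:44658421-44658480 for Pax5, chr9:51048121-51048180 for Pou2af1 and chr5:88949919-88949978 for Igj. The tumors arose from Trp53-null BALB/c mammary ducts transplanted into the cleared fat pads of wild-type BALB/c females, so that the transplanted epithelium lacked Trp53 in every group and the host's immune cells did not. Mice were fed a low fat diet throughout (LFD), a high fat diet throughout (HFD), a high fat diet in puberty only (HFD-LFD) or a high fat diet in adulthood only (LFD-HFD), and tumors were early or late according to latency, with a year as the limit.

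Tumors carry the names of the labels, whose shared start MSU_ is left off in the figures. RNA of 41 tumors, 1 per array, was hybridised with Universal Mouse Reference RNA, which is a pool from 11 mouse cell lines according to the labels. Of these tumors 29 were epithelial, with 8 LFD, 8 HFD, 7 HFD-LFD and 6 LFD-HFD, and 12 were spindle cell carcinomas, with 3 from each regimen. The early tumors numbered 14 of the epithelial and 3 of the spindle cell tumors. Nothing in the labels says which tumors shared a mouse, and 3 of the 38 label numbers are on 2 tumors each. P-values therefore measure the spread between these tumors. Of 8 epithelial markers, 7 were well above background in all 41 tumors and Cldn4 in all but 1 spindle cell tumor, and none passed the comparison of the histologies described later.

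B cells recognise antigen through a receptor made of a surface immunoglobulin and a signalling pair, the Cd79a and Cd79b chains. Blnk is the adaptor that links the activated receptor kinase Syk to downstream enzymes, and Ms4a1 encodes the B cell surface protein CD20. Pax5 is the transcription factor that commits cells to the B lineage and is switched off when a B cell becomes a plasma cell. Pou2af1 is a coactivator that B cells and plasma cells use with the octamer-binding factors Oct1 and Oct2, and Igj encodes the joining chain of secreted IgM and IgA, made by plasma cells. In the mammary gland, plasma cells supply the IgA of milk, and lymphocytes come from the blood or from the lymph node that lies in the fat pad. In tissue RNA, fewer cells of a type and less RNA per cell cannot be told apart.

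The stretches around the start of 4 members are shown because Pou2af1 acts at octamer sites and because these genes did not all vary together. They come from RefSeq on GRCm38.p6, which held 5 of the 7 members, Igj under its present name Jchain, and cover 250 bases before and 50 after the annotated start, on the strand of the gene. Capitals mark an octamer, ATGCAAAT or its reverse complement ATTTGCAT. The octamer is in 1.74% of the 32851 stretches of this length in the table.

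Cd79a, chr7:24897247-24897546, plus strand: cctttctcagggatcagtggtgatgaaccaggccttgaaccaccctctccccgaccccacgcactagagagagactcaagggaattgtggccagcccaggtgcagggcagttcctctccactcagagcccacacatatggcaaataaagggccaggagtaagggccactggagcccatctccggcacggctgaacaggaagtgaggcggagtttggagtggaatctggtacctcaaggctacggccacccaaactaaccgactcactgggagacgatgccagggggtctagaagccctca
Pou2af1, chr9:51213440-51213739, plus strand: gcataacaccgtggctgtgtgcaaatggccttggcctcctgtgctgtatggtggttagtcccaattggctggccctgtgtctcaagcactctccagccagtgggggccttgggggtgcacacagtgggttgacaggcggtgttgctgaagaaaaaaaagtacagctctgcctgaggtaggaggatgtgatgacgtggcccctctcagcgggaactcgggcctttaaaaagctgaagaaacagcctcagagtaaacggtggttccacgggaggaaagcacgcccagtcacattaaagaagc
Igj, chr5:88527848-88528147, minus strand: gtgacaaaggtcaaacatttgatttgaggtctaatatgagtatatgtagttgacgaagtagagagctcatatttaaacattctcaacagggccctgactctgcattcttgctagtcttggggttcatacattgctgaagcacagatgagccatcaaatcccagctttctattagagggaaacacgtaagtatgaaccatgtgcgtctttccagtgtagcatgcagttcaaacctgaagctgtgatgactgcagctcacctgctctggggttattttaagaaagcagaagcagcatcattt
Blnk, chr19:40994172-40994471, minus strand: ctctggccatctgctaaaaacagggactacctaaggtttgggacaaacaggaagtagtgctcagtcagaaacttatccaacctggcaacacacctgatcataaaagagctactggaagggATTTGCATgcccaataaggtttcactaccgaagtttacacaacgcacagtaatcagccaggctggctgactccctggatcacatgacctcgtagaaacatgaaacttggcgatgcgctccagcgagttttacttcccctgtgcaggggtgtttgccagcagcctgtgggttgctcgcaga

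Among the 5 stretches, Blnk alone held an octamer, 1 copy at position -130 from its annotated start, and the stretch of Pax5, not printed, held none. A match or its absence describes these letters only.

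The log2 ratio of tumor over reference signal was the measure for each tumor, with Cy5 as the tumor channel. The labels give Cy5 for the tumor whereas the methods give it for the reference. The Y-linked genes Ddx3y and Eif2s3y, which tumors of females should lack, gave more Cy3 than Cy5 signal on 41 of 41 arrays, and over 5 Y-linked probes the median ratio was below 0 on 38 arrays and reached 0.26 on the others, so Cy5 was taken as the tumor. A ratio is relative to the reference pool and was not compared between genes. Tests ran over the 20841 genes whose tumor and reference signals both exceeded 10 on 80% or more of the arrays, a filter that 5 members passed. Ms4a1 and Pax5 did not pass, with tumor signals over 10 on 31 and 27 arrays, and were tested only in fits with no filter, over 30175 genes.

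The members differed in how well the arrays measured them. Blnk and Cd79b were well above background in the tumor channel in all 29 epithelial and all 12 spindle cell tumors, and Cd79a in 28 and 12. Igj was so in 28 and 9, Pou2af1 in 25 and 9, Ms4a1 in 20 and 4, and Pax5 in 13 and 3. No member was saturated on any array. For Cd79a a second, dimmer probe followed the first with r = 0.83 across the epithelial tumors, and for Pax5 the second probe followed the first with r = 0.38, so single Pax5 values are uncertain.

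**Figure D1:**
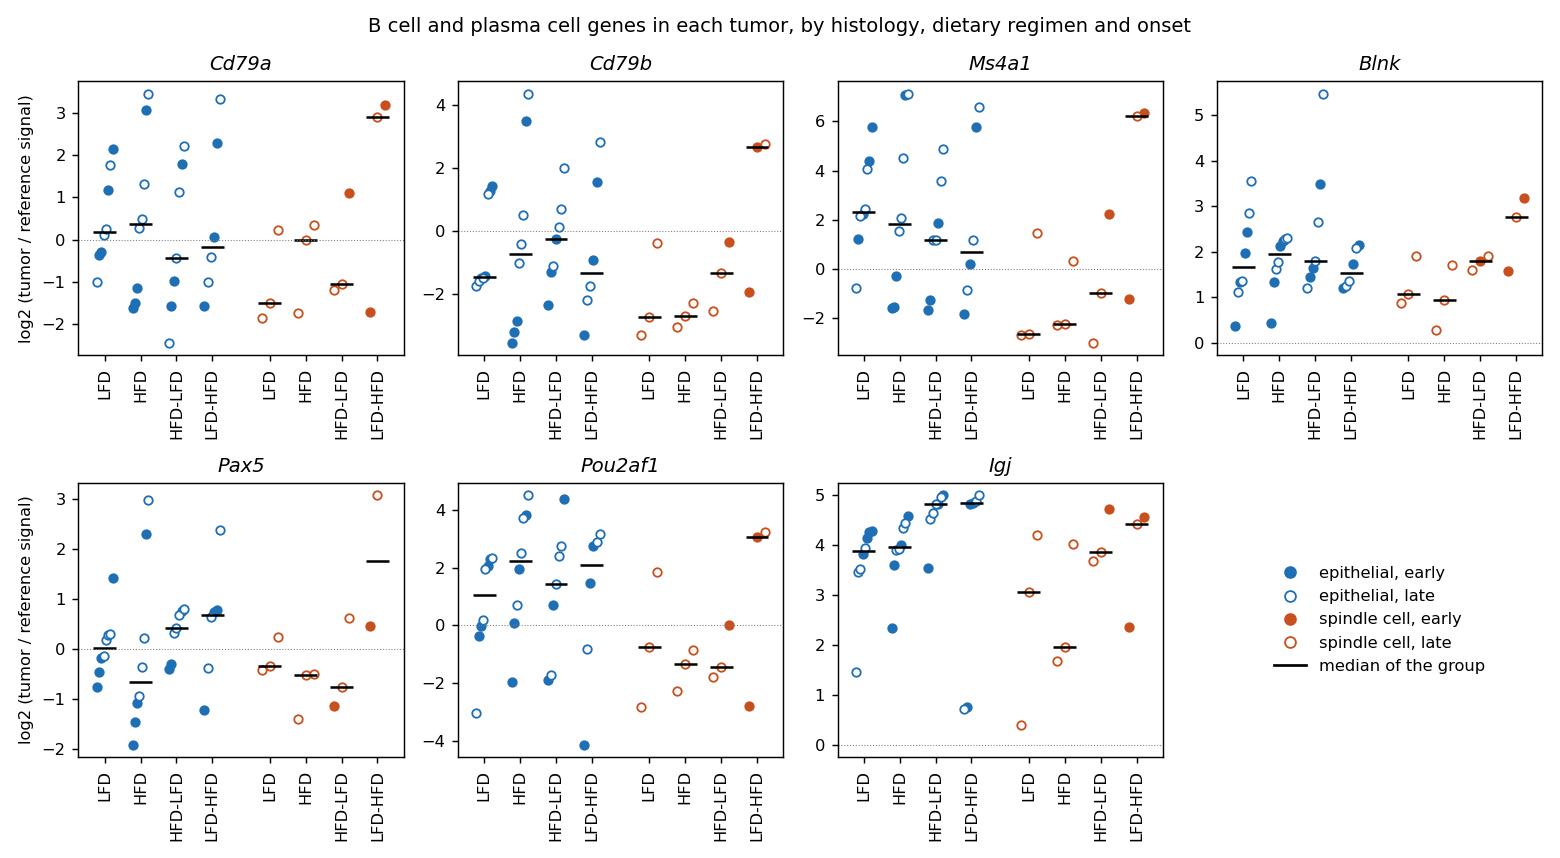
Log2 ratio of tumor over reference signal of the 7 genes in each tumor, by dietary regimen, with epithelial tumors in blue, spindle cell tumors in orange, early tumors filled, late tumors open and a bar at each group's median. In every regimen the epithelial tumors spread over several log2 units in Cd79a, Cd79b, Ms4a1 and Pou2af1, and the medians of these genes lie within that spread. Blnk, Pax5 and Igj spread less in some regimens.

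The most evident feature of these genes was their spread from tumor to tumor within a group. Ms4a1 ranged over the epithelial tumors from -1.84 in MSU_82L to 7.13 in MSU_57R with a median of 1.86, and its tumor signal ran from 5.99 to 5071. Cd79b ranged from -3.54 in MSU_60L to 4.37 in MSU_57R with a median of -1.01, a 241-fold range of ratios. Cd79a ranged from -2.45 in MSU_108R to 3.46 in MSU_57R with a median of 0.10. The Cd79a spot of MSU_108R was not well above background, and the lowest value that was is -1.61 in MSU_42L4B. The same holds for Ms4a1 in MSU_82L, and the lowest Ms4a1 value well above background is 0.22 in MSU_80L.

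Pou2af1 ranged from -4.14 in MSU_82L to 4.52 in MSU_57R with a median of 1.95, and Pax5 from -1.90 in MSU_65R to 2.98 in MSU_57R with a median of 0.22. Both lower ends are spots not well above background, and the lowest values that were are -1.97 for Pou2af1 in MSU_42L4B and 0.19 for Pax5 in MSU_11L. Blnk ranged from 0.37 in MSU_31R to 5.47 in MSU_108R with a median of 1.77, and was above the reference in all 29 epithelial tumors. Igj was likewise above the reference in all 29, from 0.72 in MSU_71L to 5.00 in MSU_101L4A with a median of 4.26. Over the epithelial tumors the standard deviation of a gene's log2 ratio was 0.55 in the median of the 20841 genes tested. It was 1.64 for Cd79a, 2.06 for Cd79b, 2.80 for Ms4a1, 2.23 for Pou2af1, 1.18 for Igj, 1.12 for Pax5 and 1.01 for Blnk. Cd79b thus varied more than 99.6% of the genes tested, Pou2af1 more than 99.8% and Blnk more than 87.2%.

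Little of this spread lay between the 8 groups formed by regimen and onset. The share of the variance between those groups was 16.0% for Cd79b, 20.6% for Ms4a1, 13.1% for Pax5, 13.9% for Pou2af1, 20.5% for Igj and 18.6% for Blnk, as a description, and that for Cd79a was below all of these. Its median was 31.6% over the 12329 tested genes measured in every epithelial tumor.

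The high values fell on the same few tumors for the B cell genes. The late LFD-HFD tumor MSU_101L4A was among the 5 highest epithelial tumors for 6 of the 7 genes, and the early HFD tumor MSU_40R4A and the late HFD tumor MSU_57R for 5 each. The early LFD-HFD tumor MSU_92R was among the 5 highest for 4 genes, the late HFD-LFD tumor MSU_109L for 3 and the early LFD tumor MSU_22R for 2. These 6 tumors came from all 4 regimens and from both onset classes.

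In MSU_40R4A the log2 ratios were 3.07 for Cd79a, 3.50 for Cd79b, 7.07 for Ms4a1, 2.31 for Pax5 and 3.83 for Pou2af1. In MSU_57R they were 3.46, 4.37, 7.13, 2.98 and 4.52 in the same order, and in MSU_101L4A they were 3.33, 2.83, 6.58, 2.38 and 3.19. On the slide of MSU_40R4A and MSU_57R, MSU_65R had Ms4a1 at -1.53, not well above background, and MSU_66L at 1.55, near the epithelial median. The mean log2 ratio of 8 genes of lymph node stroma and vessels was 3.37 in MSU_40R4A, 3.23 in MSU_57R and 2.86 in MSU_101L4A, against a median of 0.40 and a range of -1.16 to 3.37 over the epithelial tumors, and the part of such tissue in the high values was not tested. The deposited matrix and the scanner files disagree on which of MSU_40R4A, MSU_57R and MSU_65R is which, with r between 0.965 and 0.968 to another tumor's file, so the onset of the HFD tumors with the highest values is uncertain. All 3 were HFD tumors in either case.

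Spindle cell tumors showed the same kind of spread. Cd79b ranged from -3.30 in MSU_M18L to 2.77 in MSU_M76R with a median of -2.10, and Ms4a1 from -3.01 in MSU_M128L to 6.35 in MSU_M86R with a median of -1.09. The Ms4a1 spots at the lower end and around the median were not well above background. The lowest Ms4a1 value that was is 0.30 in MSU_M54R. The LFD-HFD tumors MSU_M76R and MSU_M86R stood above the other 10, with Cd79a at 2.91 and 3.19, Ms4a1 at 6.22 and 6.35, and Pou2af1 at 3.24 and 3.08. The third LFD-HFD tumor, MSU_M84R, had Cd79a at -1.70, Ms4a1 at -1.21 and Pou2af1 at -2.79, each below the spindle cell median. Its Ms4a1 and Pou2af1 spots were not well above background. The Pax5 spot of MSU_M86R was marked as an outlier by the scanner software, with 4294 in the tumor and 4111 in the reference channel, and was left missing.

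**Figure D2:**
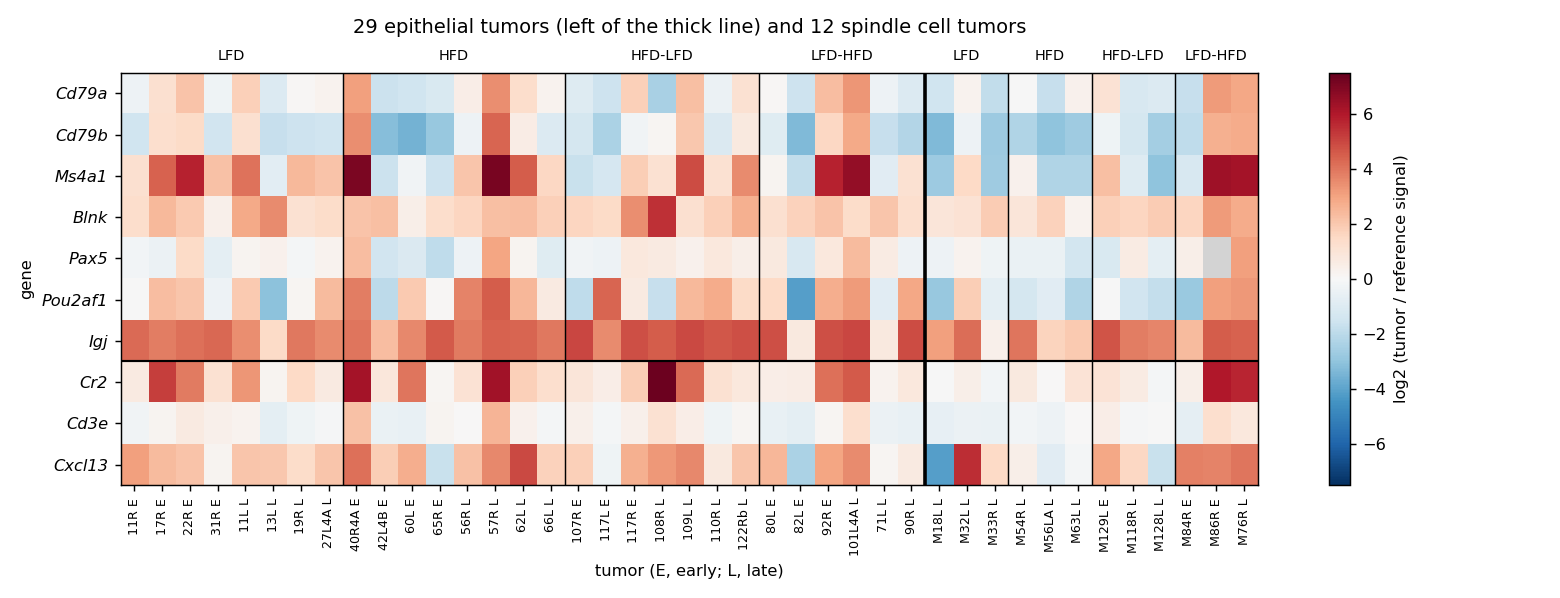
Log2 ratio of tumor over reference signal of the 7 genes (above the horizontal line) and of Cr2, Cd3e and Cxcl13 (below it) in each of the 41 tumors, grouped by histology and regimen, with grey for a missing value. Tumors MSU_40R4A, MSU_57R, MSU_101L4A, MSU_92R, MSU_M86R and MSU_M76R are red in Cd79a, Cd79b and Ms4a1 together, whereas Igj is red in most tumors and Blnk is highest in MSU_108R.

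Correlations across the 29 epithelial tumors were computed for all 21 pairs, with two-sided permutation p-values from 100000 resamples and Benjamini-Hochberg adjustment over the pairs. At 0.05, 13 pairs passed with Pearson's r. Cd79a, Cd79b, Ms4a1 and Pax5 formed a group whose 6 pairs had Pearson r from 0.72 to 0.92 and Spearman rho from 0.59 to 0.91. Cd79b and Ms4a1 were the closest pair (r = 0.92, rho = 0.86, permutation p = 1e-05 for both, the smallest that the resamples allow, adjusted p = 3.5e-05 for r and 7e-05 for rho). Cd79a and Ms4a1 followed (r = 0.91, rho = 0.91, with the same permutation p). Without the 2 tumors farthest from the median of the first gene of a pair, r in this group was 0.61 to 0.90.

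Pou2af1 varied with these genes less closely, with r from 0.47 with Pax5 to 0.64 with Ms4a1 and rho from 0.42 to 0.63, all 4 pairs passing by both measures (largest adjusted permutation p = 0.0197 for r and 0.0464 for rho). Without the 2 farthest tumors its r was 0.35 to 0.57. Pou2af1 was high in some tumors that were low in the receptor genes. In the early HFD-LFD tumor MSU_117L it reached 4.38 while Cd79a was at -1.56, Cd79b at -2.34 and Ms4a1 at -1.27.

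Blnk did not vary with the other B cell genes in epithelial tumors. Its r with the other 6 members was between -0.26 and 0.27, and none of these pairs passed (smallest adjusted permutation p = 0.20 for r and 0.091 for rho). Its highest value, 5.47, was in the late HFD-LFD tumor MSU_108R, whose Cd79a spot was not well above background. Tumor MSU_108R also had the highest log2 ratio of Cr2, a complement receptor of B cells and follicular dendritic cells, 7.36, and of Madcam1, an adhesion molecule of lymph node and gut vessels, 5.57. On its array 52.4% of spots were well above background for the tumor, the lowest share of all arrays, against 73.8% on the median epithelial array. The part of that array's dimness in these values was not tested.

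**Figure D3:**
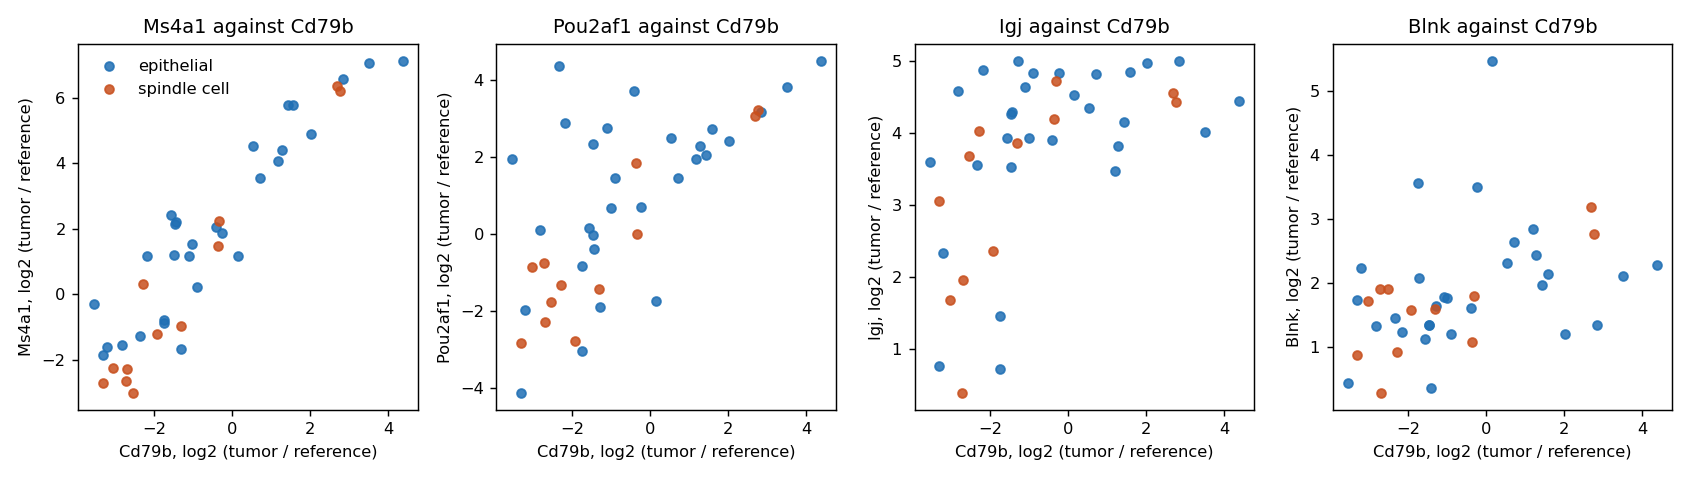
Log2 ratios of Ms4a1, Pou2af1, Igj and Blnk against that of Cd79b, 1 point per tumor, with epithelial tumors in blue and spindle cell tumors in orange. Ms4a1 rises with Cd79b except at the lowest Cd79b values, where its spots were not well above background. Pou2af1 rises with Cd79b with scatter at low Cd79b, and Igj lies in a narrow band in most epithelial tumors, around its median of 4.26. Blnk has its highest point, MSU_108R at 5.47, at a middle Cd79b value.

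Igj appeared to vary little with the B cell genes when measured as a ratio, but the ratio of this gene was not a steady measure. Its r with Cd79a, Cd79b, Ms4a1 and Pax5 was 0.27 to 0.46, with 2 of the 4 pairs passing for r and 1 for rho. Its r with Pou2af1 was 0.54 (adjusted permutation p = 0.0055), but rho was 0.29 and r without the 2 farthest tumors 0.24, so that relation rests on those tumors. The reference signal of Igj, however, ran from 7.61 to 1986 over the epithelial arrays although every array carried the same reference pool. After subtracting each array's median, the reference signal of Igj correlated with its tumor signal at r = 0.90 and had a standard deviation of 2.12 on the log2 scale. In the median gene tested that correlation was 0.45 and that standard deviation 0.28. The tumor signal of Igj ran from 15.4 in MSU_82L to 31990 in MSU_40R4A, whereas its ratio spanned 19.4-fold.

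With the tumor channel alone, as log2 signal less the array's 75th percentile, Igj correlated at 0.73 with Cd79a, 0.76 with Cd79b, 0.79 with Ms4a1 and 0.63 with Pou2af1 (adjusted permutation p = 6e-05, 4.2e-05, 4.2e-05 and 0.000455). Its r with Pax5 was lower, 0.42 (adjusted permutation p = 0.035). The tumor channel alone was chosen as an alternative after seeing the data. Blnk remained apart from the other members with the tumor channel alone, at r = -0.24 to 0.27. The reference signals of Cd79b and Blnk were steadier, with standard deviations of 0.18 and 0.17, and those of Cd79a, Ms4a1 and Pou2af1 were 0.66, 0.59 and 0.46. That of Pax5, a dim probe, was 1.14. Igj was not alone in a reference signal that moved with the tumor signal. The r between the channels was 0.81 for Cd79a, 0.78 for Pax5, 0.69 for Cd79b and 0.64 for Pou2af1. It was 0.41 for Ms4a1 and 0.36 for Blnk, against 0.45 in the median gene tested.

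Within batches, the pairs among Cd79a, Cd79b, Ms4a1 and Pax5 kept their r, and some pairs with Igj did not pass. In the first scan session, which held 27 of the 29 epithelial tumors, r within the group of Cd79a, Cd79b, Ms4a1 and Pax5 was 0.69 to 0.92, and with each slide's mean removed it was 0.72 to 0.93. Of the Igj pairs that had passed, Cd79b had r = 0.39 in that session (adjusted permutation p = 0.063) and 0.32 with slide means removed (0.12). In the same order, Ms4a1 had 0.42 (0.052) and 0.47 (0.020), and Pou2af1 had 0.51 (0.015) and 0.50 (0.013). The other session held 2 epithelial tumors, too few for a value. In the 12 spindle cell tumors, all from another session, r in this group was 0.47 to 0.97 as a description, and MSU_M76R and MSU_M86R held the 2 highest values of Cd79a, Cd79b, Ms4a1 and Pou2af1. There Blnk correlated with the other members at 0.30 to 0.74, and the difference in this between the histologies was not tested.

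Genes outside the 7 were ranked by Pearson r over the epithelial tumors with the mean of the 7 standardised log2 ratios, among the 20167 other genes tested with a probe well above background on at least 0.5 of the arrays. The 8 closest were Cd3d (0.93), the transcript ENSMUST00000103291 (0.92), Ptprcap (0.92), the transcript ENSMUST00000103299 (0.91), Zap70 (0.90), the immunoglobulin heavy chain variable segment Ighv14-2 (0.89), Rcsd1 (0.89) and Tbc1d10c (0.89). Cd3d is a chain of the T cell receptor complex, Zap70 the kinase that acts at that receptor, and Ptprcap a partner of the leukocyte phosphatase CD45. These values are a description across tumors that share slides, and carry no p-value.

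Markers of T cells varied with the 7 genes as a list, and those of macrophages and epithelium did not. Of the 12 T cell markers tested, 11 had r over 0.5 with the mean of the 7 genes, with a median r of 0.73, and Cd247 was the exception at -0.10. Of the 8 genes of lymph node stroma and vessels, 6 had r over 0.5 with a median of 0.69, and of the 12 genes of B cell attraction and survival 7 did with a median of 0.65. Among the latter were the lymphoid chemokines Ccl19 (0.77) and Cxcl13 (0.71), the receptor Ccr7 (0.65), and the lymphotoxins Ltb (0.79) and Lta (0.75). In contrast, 0 of 10 macrophage markers and 0 of 8 epithelial markers had r over 0.5, with medians of 0.21 and -0.04. Over all eligible genes the median was -0.02 and 3.0% were over 0.5. Lists of genes share members here, since Cr2, Fcer2a, Ccl19, Cxcl13 and Ccl21a stand in 2 lists each, and the lists were chosen with earlier results of these data known.

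Of the 15 other genes of the B cell receptor and its co-receptors that were tested, 8 had r over 0.5, with a median of 0.53. Among them Vpreb3 (0.87), the scaffold Bank1 (0.86), Fcrla (0.80) and the IgE receptor Fcer2a (0.78) were close. The inhibitory receptors Cd22 (0.08) and Cd72 (0.02) were not. Neither were the phospholipase Plcg2 (-0.03) and the kinase Lyn (0.11), which other leukocytes also use. Of 11 B lineage transcription factors, 5 were over 0.5, led by Irf4 (0.80) and Ebf1 (0.68). Of 11 plasma cell and secretory genes, 2 were over 0.5, 2010001M09Rik (0.79), now named Mzb1, and the B and T cell costimulatory receptor Cd27 (0.61). Xbp1, Prdm1 and Sdc1, which the mammary epithelium or other cells also express, were at -0.04, 0.17 and -0.25. The part of other cell types in these low values was not tested. Of 18 immunoglobulin chain names searched, 2 matched a name on the array, Igkc and Igh-VJ558, and neither passed the filter.

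Among the list genes, Blnk had its highest r with Syk (0.68), Laptm5 (0.59) and Vav1 (0.58). Cd79b had 0.62, 0.48 and 0.53 with the same genes. Over the 8 pan-leukocyte genes, which include Vav1 and Laptm5, the median r was 0.36 for Blnk and 0.50 for Cd79b. Ptprc (0.0004) and Cd53 (0.01) of that list did not vary with Blnk. The r of Blnk with single macrophage markers ran from -0.05 for Cd14 to 0.57 for Cd68, and that of Cd79b from -0.12 for Fcgr1 to 0.37 for Mrc1. Over the 10 macrophage markers the median r was 0.30 for Blnk and 0.19 for Cd79b, and over the 12 T cell markers it was 0.18 for Blnk and 0.75 for Cd79b. Over all eligible genes it was -0.04 for Blnk and -0.02 for Cd79b. The difference between Blnk and Cd79b in these correlations was not tested.

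**Figure D4:**
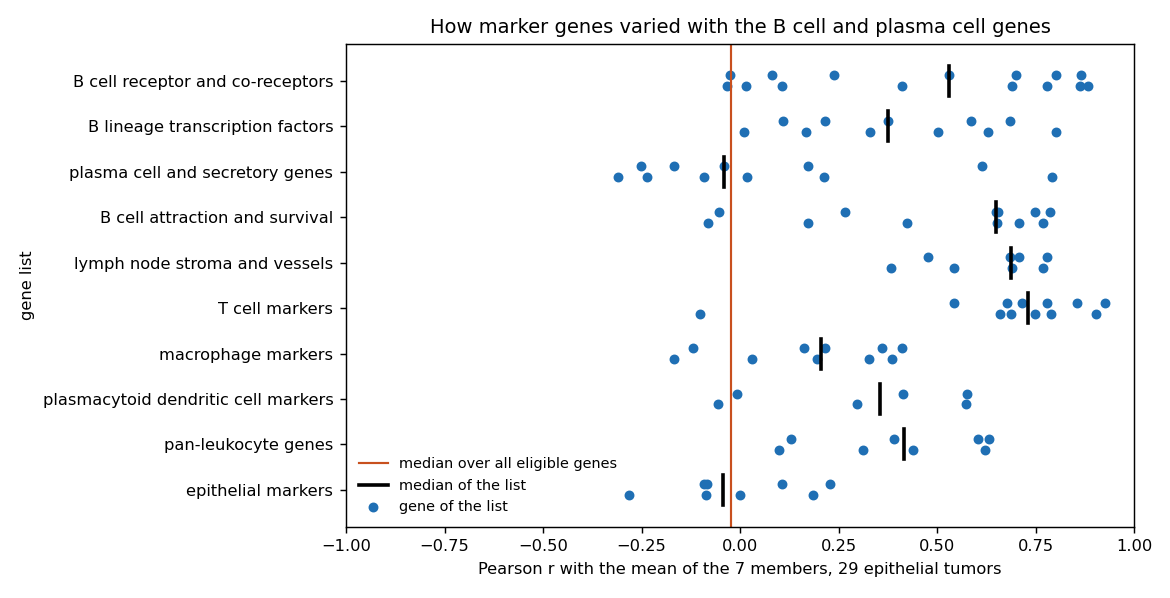
Pearson r over the 29 epithelial tumors between each gene of a list and the mean of the 7 standardised log2 ratios, with a black bar at the median of the list and an orange line at the median over all eligible genes, -0.02. T cell markers and genes of lymph node stroma lie mostly above 0.5, and epithelial markers lie around 0.

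The question of whether spindle cell and epithelial tumors differ in these genes was put with limma on all 41 tumors. All 5 members tested had lower means in spindle cell tumors, and none passed at an adjusted p of 0.05, where 20.2% of the genes tested passed. For Pou2af1 the 12 spindle cell tumors had a lowest value of -2.82, a median of -1.10 and a mean of -0.49 (SD 2.13), and the 29 epithelial tumors had a mean of 1.18 (SD 2.23). The difference was -1.67 with a standard error of 0.73 on the log2 scale, a fold of 3.18, and the adjusted p in limma was 0.099. The groups overlapped, since the spindle cell tumors reached 3.24 and epithelial values well above background went down to -1.97.

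Igj differed by -0.67 (SE 0.41, adjusted p = 0.26 in limma) on the ratio and -1.79 (SE 0.90, adjusted p = 0.15) with the tumor channel alone. Cd79b differed by -0.83 (SE 0.68, adjusted p = 0.41), Cd79a by -0.47 (SE 0.55, adjusted p = 0.59) and Blnk by -0.31 (SE 0.32, adjusted p = 0.52). The 95% confidence interval for Blnk ran from -0.95 to 0.33, and that for Cd79b from -2.21 to 0.55, so differences of over 4-fold in Cd79b lie within it. The median difference over the 5 members was -0.67, against -0.07 over all genes tested. The spindle cell arrays had their own scan session and software version, so histology and session cannot be told apart.

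In the fit with no filter, where 26.2% of genes passed, Ms4a1 differed by -1.98 (SE 0.98, adjusted p = 0.13 in limma) and Pax5 by -0.26 (SE 0.39, adjusted p = 0.67). For Ms4a1 the authors' matrix gave -0.05 (SE 0.97, adjusted p = 0.98). In the fit with the filter, where 20.2% of genes passed, 1 of the 12 T cell markers passed, Cd8a, lower in spindle cell tumors (-1.39, SE 0.48, adjusted p = 0.034 in limma), and 1 of the 10 macrophage markers, Cd163, higher (1.95, SE 0.26, adjusted p = 5.49e-07). Cd8a was well above background in 24 of 29 epithelial and 6 of 12 spindle cell tumors, and Cd163 in 17 and 12. The mean log2 ratio of the 12 T cell markers had a median of 0.27 over the epithelial tumors (-1.01 to 2.75) and of -0.36 over the spindle cell tumors (-1.22 to 1.17), and their part in the differences of the 7 genes was not tested.

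Pou2af1 passed in some alternatives. Under normexp background correction with loess normalization, where 16.2% of genes passed, its difference was -1.37 (SE 0.45, adjusted p = 0.031 in limma). Without MSU_82L, the epithelial tumor lowest in Pou2af1 and not well above background there, the difference was -1.86 (adjusted p = 0.049), and without MSU_M76R, the spindle cell tumor highest in it, -2.01 (adjusted p = 0.046). Without any other single tumor it did not pass, and over all 41 such fits the difference ran from -2.01 to -1.46. The arrays MSU_42L4B, MSU_60L, MSU_M32L, MSU_M76R and MSU_M86R were left out together after seeing the data, since earlier results of these data had put them apart. The first 2 of them make up a scan session of their own, with 3.503% and 22.02% of spots marked as outliers. Without these 5 arrays, Pou2af1 differed by -2.83 (SE 0.74, adjusted p = 0.0042) and Cd79b by -2.03 (SE 0.65, adjusted p = 0.019), in a fit where 28.4% of genes passed. That set holds both spindle cell tumors with high B cell genes.

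Other B lineage genes were compared between the histologies in the fit where 20.2% of all genes passed, and the share passing in each list was at or below that. Of 11 B lineage transcription factors tested, Bcl11a fell in spindle cell tumors (-1.59, SE 0.42, adjusted p = 0.0058 in limma) and Ebf1, which stromal and fat cells also express, rose (0.80, SE 0.29, adjusted p = 0.049). Of the 12 genes of B cell attraction and survival, Tnfrsf13c, the B cell receptor for the survival factor BAFF, fell (-1.90, SE 0.67, adjusted p = 0.040). Of the 11 plasma cell and secretory genes, Cd27 fell (-1.11, SE 0.35, adjusted p = 0.020) and Edem1, which serves protein quality control in all cells, rose (0.35, SE 0.13, adjusted p = 0.044). Tnfrsf13c was well above background in 25 of 29 epithelial and 6 of 12 spindle cell tumors, and Cd27 in 26 and 6. The size of their fall is thus uncertain. None of the 15 other receptor genes and none of the 8 genes of lymph node stroma passed. Siglech, a marker of plasmacytoid dendritic cells, fell by 0.61 (SE 0.14, adjusted p = 0.0024), and the leukocyte gene Cd53 rose by 0.94 (SE 0.34, adjusted p = 0.042), the only genes to pass in their lists of 6 and 8.

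**Figure D5:**
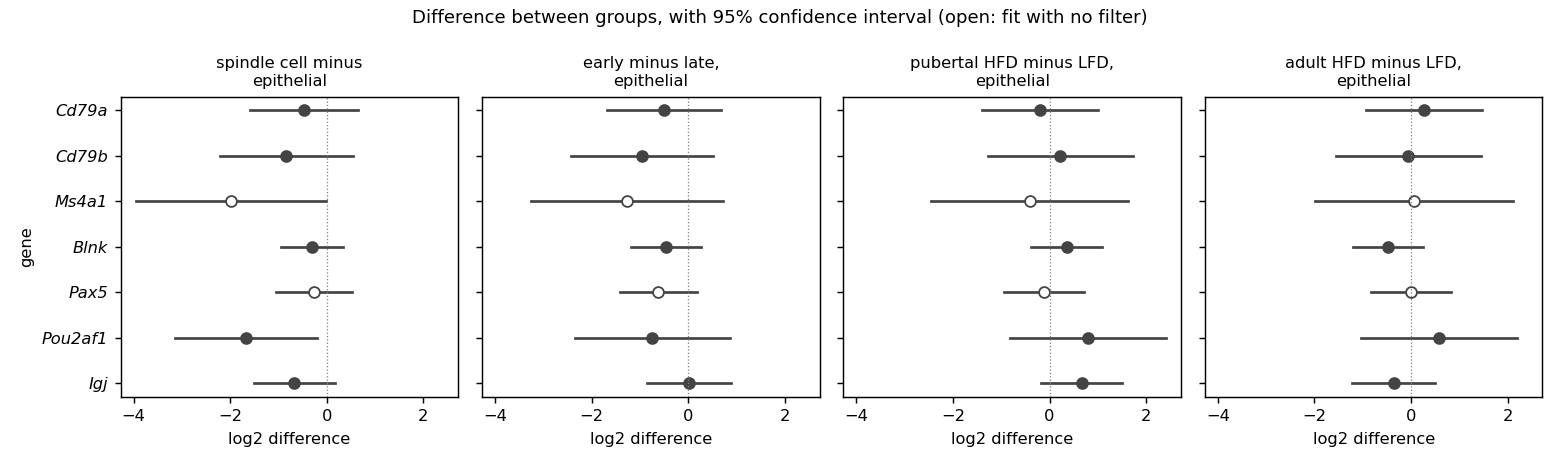
Log2 difference between groups for the 7 genes, with 95% confidence intervals from limma, for spindle cell minus epithelial tumors and, within epithelial tumors, early minus late, pubertal HFD minus pubertal LFD and adult HFD minus adult LFD; open points are from the fit with no filter. The intervals of Pou2af1 and Ms4a1 lie below 0 in the histology comparison before adjustment, and the other intervals include 0.

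For the question of tumor onset, early and late epithelial tumors were compared. None of the 5 members passed at 0.10, where 0.221% of the genes tested passed. The 14 early tumors ran from -3.54 to 3.50 in Cd79b, median -1.36, and the 15 late tumors from -2.17 to 4.37, median -0.40, so the groups overlapped over most of their range. Its difference, early minus late, was -0.95 (SE 0.72, adjusted p = 0.58 in limma). Cd79a differed by -0.50 (SE 0.58), Pou2af1 by -0.74 (SE 0.79), Blnk by -0.47 (SE 0.35) and Igj by 0.01 (SE 0.43). The adjusted p of these 4 lay between 0.58 and 0.99. In the fit with no filter Ms4a1 differed by -1.27 (SE 0.97) and Pax5 by -0.62 (SE 0.39).

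The direction for Cd79a and Cd79b turned with the disputed labels. With the matrix's labels for MSU_40R4A, MSU_57R and MSU_65R, Cd79b differed by 0.04 (SE 0.74) and Cd79a by 0.14 (SE 0.59). With slide as a fixed block, Cd79b differed by -1.19 (SE 1.12) and Pou2af1 by -2.21 (SE 1.28), neither past the threshold. That fit compares onset within slides, and only the slides of MSU_56R, MSU_82L and MSU_40R4A held both early and late tumors. On the other slides of epithelial tumors, onset and slide cannot be told apart.

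In spindle cell tumors, 3 early tumors were set against 9 late ones. No member passed, and 0.0% of the genes tested did. Cd79b was at -0.32 in MSU_M129L, -1.92 in MSU_M84R and 2.68 in MSU_M86R among the early tumors, and the late ones had a median of -2.53 and ran from -3.30 to 2.77. Its difference was 1.86 (SE 1.198, adjusted p = 1.0 in limma). The onset effect was also compared between the histologies, and none of the members passed that test of the difference, where 0.0048% of the genes did. The largest of the 5 differences between effects was 2.82 (SE 1.49, adjusted p = 1.0 in limma) for Cd79b.

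The study's dietary question sets mice on HFD in puberty against mice on LFD in puberty. Over all tumors none of the 5 members passed at 0.10, and 0.0096% of the genes tested did. The mean of Cd79a was 0.07 ± 1.67 (SD, n = 21) after HFD in puberty and 0.39 ± 1.70 (SD, n = 20) otherwise, a difference of -0.31 (SE 0.51, adjusted p = 0.94 in limma). Igj was at 3.97 ± 0.95 (SD, n = 21) and 3.45 ± 1.498 (SD, n = 20), a difference of 0.52 (SE 0.38, adjusted p = 0.82). Pou2af1 differed by 0.12 (SE 0.70), Blnk by 0.10 (SE 0.29) and Cd79b by -0.28 (SE 0.63).

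Within the epithelial tumors, where 0.0% of genes passed for pubertal diet, the differences were 0.66 (SE 0.41) for Igj, 0.80 (SE 0.79) for Pou2af1, 0.35 (SE 0.36) for Blnk, 0.22 (SE 0.74) for Cd79b and -0.19 (SE 0.59) for Cd79a. The interval for Cd79b ran from -1.28 to 1.73, so that a change of 2-fold in either direction was within the error. Adult HFD against adult LFD gave differences of -0.48 (SE 0.35) for Blnk, 0.58 (SE 0.79) for Pou2af1, -0.36 (SE 0.42) for Igj, 0.27 (SE 0.59) for Cd79a and -0.06 (SE 0.74) for Cd79b, where again 0.0% of genes passed. None of the members passed the test of whether the pubertal effect differed between the histologies, where 0.451% of genes did. There Pou2af1 had the largest value, -2.38 (SE 1.45, adjusted p = 0.51 in limma).

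The 4 regimens were then compared together. Every slide of epithelial tumors held a single regimen, except the slide that MSU_56R and MSU_80L shared. Differences between regimens in epithelial tumors can therefore not be fully told apart from differences between slides. In epithelial tumors none of the 5 members passed limma's F-test at 0.10, where 0.475% of genes passed. Cd79a had medians of 0.18 in LFD, 0.38 in HFD, -0.43 in HFD-LFD and -0.17 in LFD-HFD tumors, each within the range of every other regimen. HFD tumors ran from -1.61 to 3.46 and LFD tumors from -1.01 to 2.14. Cd79b had medians of -1.45, -0.71, -0.24 and -1.31 in the same order.

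Igj came nearest to a difference between the regimens in its unadjusted p (0.26, adjusted p = 0.62 in limma). Its medians were 3.88 in LFD, 3.97 in HFD, 4.82 in HFD-LFD and 4.84 in LFD-HFD tumors. The HFD-LFD tumors ran from 3.55 to 5.00, and the LFD-HFD tumors from 0.72 to 5.00 with MSU_71L and MSU_82L at the bottom. The same tumors had tumor signals of 56.7 and 15.4 for Igj, and MSU_82L was not well above background. None of the members passed the test of whether the onset effect differed between regimens, where 0.0048% of genes did.

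In spindle cell tumors none of the members passed the F-test across regimens either, and 0.0% of genes did. The unadjusted p was under 0.05 for 2 of the 5, Cd79b (0.037, adjusted p = 0.98 in limma) and Blnk (0.040, adjusted p = 0.98). Cd79b was at -3.30, -2.73 and -0.37 in LFD, at -3.03, -2.69 and -2.28 in HFD, at -2.53, -1.31 and -0.32 in HFD-LFD and at -1.92, 2.68 and 2.77 in LFD-HFD tumors. The LFD-HFD tumors thus held the highest values but also MSU_M84R, which lay within the range of the other regimens.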

How the data were processed

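Each of 41 tumors was hybridised on a 2-colour Agilent array with a common reference. The deposited scanner files hold intensity values, which the authors' scanner software (Feature Extraction 11.0.1.1 for epithelial and 10.5.1.1 for spindle cell tumors, per the file headers) had corrected for background and for dye. The deposited matrix holds the authors' log2 ratios of the same arrays, with scale and centring not stated; its columns have medians close to 0, and its direction was read from the scanner files. The members and gene lists were chosen with earlier results of these data known.

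Ratios were computed as log2 of processed Cy5 over Cy3 signal, with outlier spots missing. Spots of a probe were averaged, and the probe of highest mean signal stood for its gene. Of 39429 probes, 27307 exceeded 10 for both tumor and reference on 80% or more of the arrays, giving 20841 genes. Tests used limma 3.58.1 in R 4.3.3 with group means, Benjamini-Hochberg adjustment, and thresholds of 0.05 for histology and 0.10 otherwise, and were checked on simulated data. Correlations used scipy 1.17.1. All 7 members are named, with the 8 other genes of highest r to their mean and the list genes that passed a test; other list genes given as examples were chosen after their values were seen. Alternatives were normexp with loess, the authors' matrix, median centring, other filters, kept outlier spots, the mean over probes, SAM, slide as a block, disputed labels, 1 tumor per label number and each tumor left out. The number of arrays limits the precision.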

Additional observations from a re-analysis of the deposited data

Results flagged for a closer look

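Within groups of 4 to 10 tumors, 7 of 63 sets of a member's values held a tumor far from the others by Dixon's criterion, which chance gives in about 1 of 20 sets. The 7 spots that stood apart were all well above background. Among the 4 early HFD epithelial tumors, MSU_40R4A stood apart as the highest in Cd79a, with 3.07 against -1.61 to -1.16 in the others. The same tumor was the highest in Cd79b, with 3.50 against -3.54 to -2.83, and in Ms4a1, with 7.07 against -1.60 to -0.28, where the other 3 spots were not well above background, so their values are floors. Of these others, MSU_42L4B and MSU_60L come from the separate scan session. These 3 sets are not independent, since the genes vary together, and the label of MSU_40R4A is one of the disputed ones. Among the late LFD epithelial tumors, MSU_11L was the highest in Cd79b, with 1.19 against -1.74 to -1.47.

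For Igj the tumor that stood apart was the lowest of its regimen. It was MSU_13L in LFD, with 1.46 against 3.47 to 4.28, MSU_42L4B in HFD, with 2.33 against 3.59 to 4.58, and MSU_117L in HFD-LFD, with 3.55 against 4.53 to 5.00. The reference signal of Igj moved with its tumor signal across arrays, and its part in these values was not tested.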

How the results depend on the processing

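Of 435 alternative values for single members, 431 kept their side of the threshold, and since no member was called in the fits reported there was no called direction that could turn. The count of members passing between the histologies, 0 in the fit reported, was 1 under normexp with loess, 1 under SAM, 2 without the 5 arrays put apart after seeing the data, and 0 to 1 with 1 tumor left out. Under SAM the member was Pou2af1 (-1.67, adjusted p = 0.034). The other 10 comparisons kept 0 members in every alternative run. Among the 21 pairs, 11 to 15 passed, against 13. No paired analysis was possible because at most 1 label number occurred in both of any groups compared. Over all genes, 4208 passed between the histologies, 7909 with no filter and 2548 with the slide fitted as a random block. The split of higher and lower genes was 1652 and 2556, against 1302 and 3404 with median centring, 2139 and 2015 in the authors' matrix and 4260 and 3649 with no filter. For onset in epithelial tumors 46 genes passed, against 472 under SAM, 9 with the matrix labels, 1 under normexp with loess and 0 without MSU_40R4A, MSU_57R and MSU_65R. For pubertal diet in epithelial tumors 0 passed, against 267 under normexp with loess and 191 with the tumor channel alone, and across the regimens 99 passed, against 3213 with the tumor channel alone. With the slide fitted as a random block, 0 genes passed for onset in epithelial tumors and 0 across the regimens in epithelial tumors. Ms4a1 and Pax5 are limited by signal over background.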
